A study of Mus musculus with 8 samples.

Results

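Ribosomal protein pseudogenes of mouse liver were examined across 4 livers of fasted mice and 4 livers of mice fed ad libitum. They were taken as every gene of GENCODE mouse release 21 whose name starts with Rpl or Rps and contains -ps, with an exon overlapped on the same strand by a row of the deposited table and at least 20 reads summed over the 8 libraries. GENCODE lists 300 genes with such names; 68 had a row and 58 passed the read minimum, against 18609 genes of all kinds that passed it. The 58 held 66 of the 83057 rows of the table, which lists transcripts of a non-coding RNA catalogue on mm10. Of the 58, 56 carry the biotype processed pseudogene, Rpl19-ps3 is a transcribed processed pseudogene and Rpl36a-ps1 is annotated as protein-coding, so the name goes against the biotype in 1 case. They comprise 35 copies of large-subunit genes and 23 copies of small-subunit genes, have 33 parent genes by name and lie on 17 chromosomes. The lowest kept was Rps12-ps22 with 24 reads and the highest left out was Rpl31-ps24 with 12 reads.

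The fasted group comprised 4 male C57BL/6 mice of about 20 weeks that had no food for 24 h, and the ad libitum group 4 co-housed, age- and weight-matched males of the same strain with free access to food. All were killed at 10 am. Stranded total-RNA libraries were made from 1 µg of DNase-treated liver RNA, 1 library per mouse. Fasted replicate 4 is reported apart from fasted replicates 1 to 3 because the libraries did not lie together, as given below.

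Ribosomal protein genes are among the most highly transcribed genes of any cell, and their spliced mRNAs have been copied back into the genome many times by retrotransposition. The resulting processed pseudogenes lack introns, usually lack the parent's promoter, and drift from the parent sequence with age. A recent copy can remain nearly identical to the parent mRNA, so that a short read may align equally well to both, whereas an old copy carries enough substitutions for its reads to be told from those of the parent. Liver makes large amounts of ribosomal protein mRNA, and food supply is known to control the translation of these mRNAs.

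The members spanned this whole range of divergence, and the sequences below are shown because the results differ along it. Each stretch covers 120 alignment columns of the coding transcript, 5′ to 3′ on the gene's own strand, from the GENCODE transcripts (GRCm38, the assembly called mm10), and capitals in a pseudogene mark bases that differ from the coding transcript. Bases deleted from a pseudogene leave no mark and shorten its line. Both copies of Rps10, a small-subunit protein gene, are diverged. Rps10-ps4 (chr5:147100941-147101052, minus strand) has 13 substitutions and 8 deleted bases in this stretch, and Rps10-ps3 (chr4:3978632-3978750, minus strand) has 13 substitutions and 1 deleted base.
Rps10-ps4: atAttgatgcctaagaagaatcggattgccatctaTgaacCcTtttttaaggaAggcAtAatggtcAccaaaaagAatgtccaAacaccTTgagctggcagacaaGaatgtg
Rps10-ps3: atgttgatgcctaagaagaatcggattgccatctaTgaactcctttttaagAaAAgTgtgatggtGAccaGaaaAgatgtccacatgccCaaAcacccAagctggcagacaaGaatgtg
Rps10: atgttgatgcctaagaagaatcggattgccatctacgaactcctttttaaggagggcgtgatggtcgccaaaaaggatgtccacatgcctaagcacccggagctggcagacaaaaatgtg

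Rps13-ps7 (chr1:63038233-63038352, plus strand) is a copy of the small-subunit gene Rps13 and differs at 10 positions. Rpl9-ps2 (chr11:46562031-46562150, plus strand) copies the large-subunit gene Rpl9 and differs at 12.
Rps13-ps7: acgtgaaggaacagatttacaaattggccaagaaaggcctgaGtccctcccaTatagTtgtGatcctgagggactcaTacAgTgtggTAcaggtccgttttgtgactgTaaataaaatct
Rps13: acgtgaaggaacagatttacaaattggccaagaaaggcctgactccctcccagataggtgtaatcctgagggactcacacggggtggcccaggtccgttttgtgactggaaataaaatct
Rpl9-ps2: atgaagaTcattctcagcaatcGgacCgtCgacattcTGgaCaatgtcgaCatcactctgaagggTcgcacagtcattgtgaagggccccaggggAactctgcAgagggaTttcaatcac
Rpl9: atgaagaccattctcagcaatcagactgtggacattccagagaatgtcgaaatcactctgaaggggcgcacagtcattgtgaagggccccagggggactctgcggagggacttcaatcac

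At the other end, Rps27a-ps2 (chr9:83409660-83409779, plus strand) matches Rps27a, which encodes ubiquitin fused to a small-subunit protein, in all 120 columns. Rpl38-ps2 (chr6:140747053-140747172, minus strand) also matches the large-subunit gene Rpl38 throughout, and Rps25-ps1 (chr6:145266400-145266519, plus strand) differs from Rps25 at 2 positions.
Rps27a-ps2: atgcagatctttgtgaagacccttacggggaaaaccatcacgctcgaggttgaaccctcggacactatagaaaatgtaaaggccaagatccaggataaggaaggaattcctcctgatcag
Rps27a: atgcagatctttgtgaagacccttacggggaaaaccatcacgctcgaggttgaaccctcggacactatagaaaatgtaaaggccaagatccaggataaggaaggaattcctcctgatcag
Rpl38-ps2: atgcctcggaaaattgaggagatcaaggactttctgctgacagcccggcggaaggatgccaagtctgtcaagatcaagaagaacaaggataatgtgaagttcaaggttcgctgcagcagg
Rpl38: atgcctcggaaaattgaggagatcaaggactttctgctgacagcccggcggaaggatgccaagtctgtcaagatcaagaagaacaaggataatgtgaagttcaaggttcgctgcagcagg
Rps25-ps1: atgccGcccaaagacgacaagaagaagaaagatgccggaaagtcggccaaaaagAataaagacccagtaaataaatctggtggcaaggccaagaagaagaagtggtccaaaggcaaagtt
Rps25: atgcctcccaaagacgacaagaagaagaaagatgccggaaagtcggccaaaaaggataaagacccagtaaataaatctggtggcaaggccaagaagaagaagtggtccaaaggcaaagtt

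The 3 copies of the small-subunit gene Rps19 differ from one another. Rps19-ps12 (chr16:79914752-79914871, minus strand) is shown from a position further into the coding sequence than Rps19-ps8 (chr5:108055800-108055916, minus strand) and Rps19-ps5 (chr15:37868086-37868194, plus strand), and Rps19 is given over the columns of Rps19-ps12.
Rps19-ps12: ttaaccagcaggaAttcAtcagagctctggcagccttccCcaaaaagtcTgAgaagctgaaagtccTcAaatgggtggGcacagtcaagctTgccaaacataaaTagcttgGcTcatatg
Rps19: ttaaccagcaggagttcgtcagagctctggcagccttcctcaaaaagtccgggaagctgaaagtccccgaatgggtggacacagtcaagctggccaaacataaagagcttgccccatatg
Rps19-ps8: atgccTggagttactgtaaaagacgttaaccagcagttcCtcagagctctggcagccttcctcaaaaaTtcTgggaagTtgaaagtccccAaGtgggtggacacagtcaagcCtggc
Rps19-ps5: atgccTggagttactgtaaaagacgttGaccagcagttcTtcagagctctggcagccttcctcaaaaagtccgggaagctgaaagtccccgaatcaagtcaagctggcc
The Rps19-ps12 stretch has 12 substitutions, that of Rps19-ps8 has 7 with 3 bases deleted and 1 inserted, and that of Rps19-ps5 has 3 with 11 bases deleted.

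Reads outside the mitochondrial 16S rRNA numbered 90243439 to 119486211 in the fasted libraries and 51107745 to 68691606 in the ad libitum libraries. On the first principal component of all genes, which held 57.3% of the variance, fasted replicates 1 to 3 lay between 60.2 and 64.4 and fasted replicate 4 at -7.39, against -49.8 to -41.8 for the ad libitum libraries. Odd read numbers made up 16.5 to 17.8% of rows with 21 to 200 reads in fasted replicates 1 to 3 and 10.8% in fasted replicate 4, against 9.21 to 10.3% in the ad libitum libraries. Each group has 1 library per mouse, and no label gives an extraction or sequencing batch. Whether a technical difference shared by fasted replicates 1 to 3 moves with the values below cannot be told apart from the fast in those 3 libraries. The tissue label could be checked on few markers, since 3 of 8 hepatocyte markers had rows (Apob, Cps1 and Ttr), with a summed 1228 to 1806 CPM (reads per 1000000 of the scaled library total) in fasted livers and 461 to 684 CPM in ad libitum livers. Marker sums of Kupffer cells (2 of 6 markers) were 3.49 to 4.04 CPM in fasted and 4.07 to 5.53 CPM in ad libitum livers, and those of endothelial cells (4 of 5) 5.56 to 7.85 CPM and, in ad libitum livers, 4.50 to 5.82 CPM. Stellate-cell markers (4 of 5) summed to 12.2 to 16.6 CPM in fasted and 13.1 to 24.3 CPM in ad libitum livers, and those of cholangiocytes (4 of 5) and of T and B cells (3 of 5) overlapped between the groups. None of the erythroid or neutrophil markers had a row. The part of these cell types in the results was not tested, and in whole liver fewer cells of a type cannot be told from less RNA per cell.

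Taken as a whole, the pseudogenes held a similar share of the liver reads in both groups. Summed over the 58, they received 1553 ± 215 reads of every 1000000 in fasted livers and 1526 ± 113 in ad libitum livers (SD, n = 4 each), a difference of 27.1 (exact two-sided permutation test, p = 0.8; the smallest p this design allows is 2 of its 70 possible splits). Without fasted replicate 4 the fasted livers averaged 1625 ± 197 (n = 3), with p = 0.4 in the same exact test, whose smallest p is then 2 of 35 splits. The sign of the difference turned when any of 4 single libraries was left out.

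Most of these reads belonged to a few members. The 10 members with the most reads were Rpl7a-ps7, Rpl19-ps10, Rps25-ps1, Rpl39-ps, Rps15a-ps7, Rpl36a-ps3, Rpl34-ps1, Rpl27a-ps1, Rps27a-ps2 and Rps19-ps5. Each is named for a ribosomal protein gene, though the coding gene closest to Rpl36a-ps3 was Rpl36al. Together they held 65.7 to 66.2% of the pseudogene reads in fasted replicates 1 to 3 and 71.5% in fasted replicate 4, against 71.5 to 71.7% in the ad libitum libraries. On the deposited RPKM scale, which divides by length, Rpl36a-ps3 stood at 220 ± 36.3 RPKM in fasted and 255 ± 12.8 RPKM in ad libitum livers. Rpl39-ps had 201 ± 16.7 RPKM in fasted and 248 ± 17.9 RPKM in ad libitum livers, and Rps15a-ps7 200.1 ± 37.4 RPKM in fasted and 197 ± 15.2 RPKM in ad libitum livers (SD, n = 4 each). Some rows reach beyond the pseudogene: 42.2% of the row of Rpl39-ps and 40.9% of that of Rpl31-ps16 lie in exons of the pseudogene. Their values thus also hold reads of other sequence. The row of Rpl19-ps10 is a spliced transcript of 4 exons that was joined over its whole span, introns included. How much of its exons lies in the pseudogene was not determined. The identity of the 10 members with the most reads to the closest coding ribosomal protein transcript ran from 89.3% for Rps19-ps5 to 99.8% for Rps27a-ps2. How reads that map to several places were counted is not given in the sources used here, so the level of a near-identical copy may hold reads of its parent, and how many was not tested.

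Across all 8 libraries, 10 of the 47 pseudogenes that passed the low-count filter rose and 3 fell in fasted livers at an adjusted p under 0.05 (edgeR quasi-likelihood test, Benjamini-Hochberg adjustment over 15400 genes). That is 27.7% of them, and 25.1% of all genes tested passed (13.7% up, 11.4% down), so the share of the pseudogenes lies near the background. Their median log2 change was -0.04, against 0.01 over all genes tested. The other 11 members did not pass the filter and were not tested in this fit. The count rests on single libraries: 25 members passed without fasted replicate 4, and 1 to 3 without any one of the other 7 libraries. Of the 47, 6 had fasted and ad libitum libraries that did not overlap, against 24.3% of all genes tested.

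Of the rises in the 8-library comparison, only those of Rpl3-ps2 and Rps19-ps5 held in all 4 fasted libraries without overlap. Rpl3-ps2, a copy of the gene for the large-subunit protein L3 that helps to form the peptidyl transferase centre, had 38.2, 43.0, 37.7 and 28.5 CPM in fasted replicates 1 to 4, against 19.5, 27.1, 26.4 and 26.8 CPM in ad libitum replicates 1 to 4. Its log2 change was 0.56 ± 0.14 (SE; edgeR adjusted p = 0.0137). All 4 fasted libraries lay above the ad libitum ones, fasted replicate 4 by the least. The only row of Rpl3-ps2 is 201 bases long, of which 143 lie in this copy of 1214 bases. These values thus cover a small part of the copy and some sequence beyond it. Rps19-ps5 had 86.4, 71.8, 82.7 and 65.4 CPM in fasted livers, against 55.9, 62.4, 56.9 and 65.2 CPM in ad libitum livers, with a log2 change of 0.35 ± 0.10 (edgeR adjusted p = 0.0296). Its lowest fasted library, replicate 4, stood just above the highest ad libitum one.

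The 3 members that fell were Rps12-ps1, Rpl39-ps and Rpl36a-ps3. Rps12-ps1 had 4.45, 5.34, 5.19 and 6.05 CPM in fasted livers, against 6.55, 6.60, 8.15 and 7.86 CPM in ad libitum livers (log2 change -0.47 ± 0.13, edgeR adjusted p = 0.0187), with no overlap between the groups. Rpl39-ps, a copy of the gene of a small protein of the peptide exit tunnel, had 92.0, 95.4, 97.3 and 117 CPM in fasted livers, against 114, 129, 129 and 135 CPM in ad libitum livers (-0.33 ± 0.10, edgeR adjusted p = 0.0328). Its fasted replicate 4 lay within the ad libitum range. Rpl36a-ps3, whose closest coding transcript is that of the intronless gene Rpl36al, had 100.3, 101, 99.3 and 90.1 CPM in fasted livers, against 113, 127, 108 and 119 CPM in ad libitum livers (-0.26 ± 0.09, edgeR adjusted p = 0.0470). All of its fasted libraries were below the ad libitum ones. The other members with the most reads were not called, among them Rps25-ps1 (-0.06 ± 0.10, edgeR adjusted p = 0.700), Rps15a-ps7 (-0.02 ± 0.09, edgeR adjusted p = 0.900) and Rps27a-ps2 (0.02 ± 0.09, edgeR adjusted p = 0.888).

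**Figure D1:**
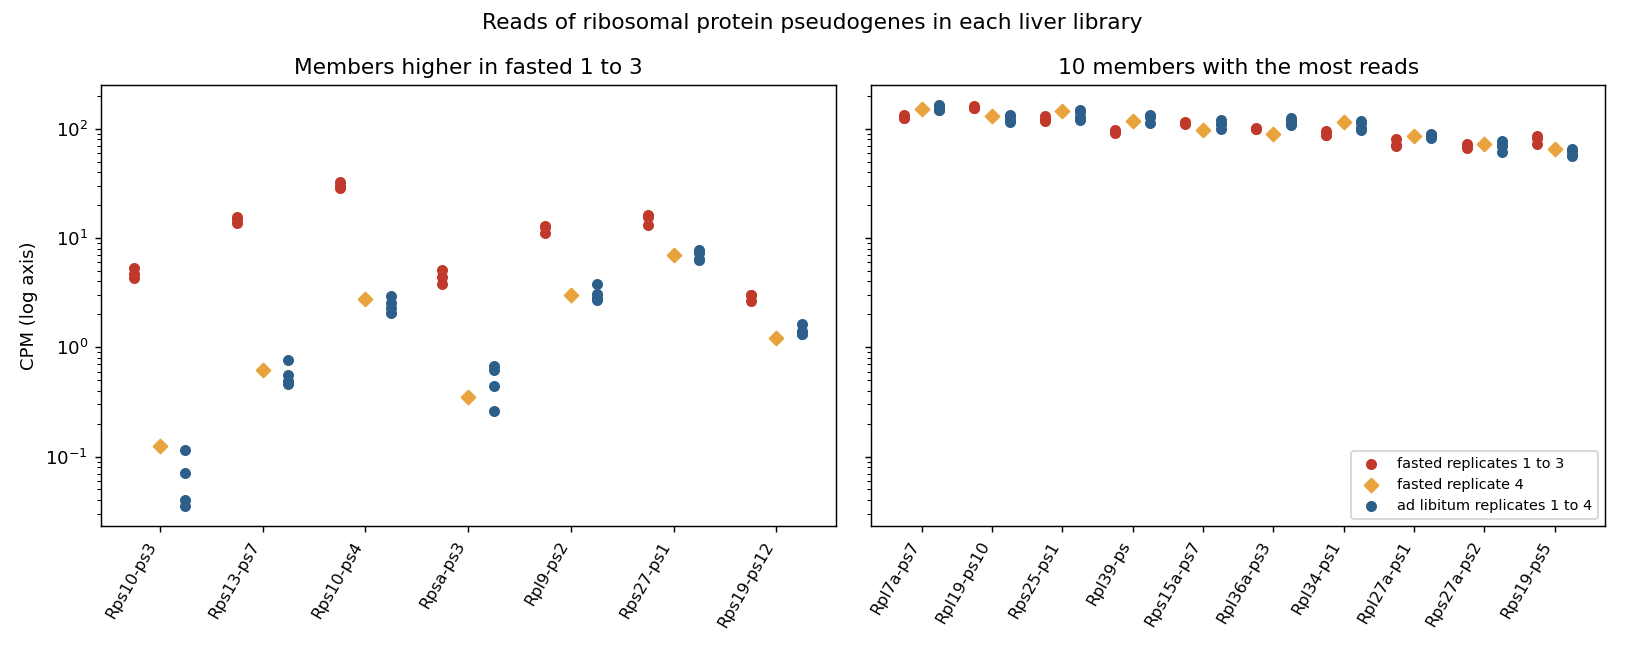
CPM on a log axis in each library, with fasted replicates 1 to 3, fasted replicate 4 and the ad libitum replicates as separate columns of points for each pseudogene; Rpl9-ps9, at 0 reads in 5 libraries, is not drawn. In the left panel fasted replicates 1 to 3 lie above both other columns, and in the right panel the 10 members with the most reads differ little.

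Fasted replicates 1 to 3 and fasted replicate 4 were then set against the ad libitum libraries separately. Fasted replicates 1 to 3 had 14 risers and 7 fallers among the 47 pseudogenes tested, 44.7% in all, where 31.5% of all genes tested passed (17.4% up, 14.1% down). Their median log2 change was -0.07, against -0.00 over all genes. Fasted replicate 4 had no called member, where 5.6% of all genes passed (3.16% up, 2.45% down). For that library edgeR gave 3 members with an unadjusted p under 0.05 (1 up, 2 down), DESeq2 3 and limma-voom 2, and neither of these tools called a member. The difference between the fasted libraries was tested in the same edgeR model: 11 members were higher in fasted replicates 1 to 3 than in fasted replicate 4 and none lower, against 6.04% of all genes (5.66% up, 0.377% down). Here edgeR gave 6 members that were lower with an unadjusted p under 0.05, and DESeq2 and limma-voom also called 0 lower. All 11 are among the 14 risers. The comparisons of the 3 libraries and of the single one share the 4 ad libitum libraries, and the spread of the single library is taken from the other libraries.

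The rises in fasted replicates 1 to 3 were large for 7 members, which passed 2-fold, whereas no faller did. Of these, 6 are described, a choice made after their values were seen. The summed level of the 6 was 76.3, 77.5 and 84.4 CPM in fasted replicates 1 to 3 and 14.9 CPM in fasted replicate 4, against 14.3 to 15.6 CPM in the ad libitum libraries. They thus made up 4.98 to 5.26% of the pseudogene reads in fasted replicates 1 to 3 and 0.994% in fasted replicate 4, against 0.956 to 1.02% in the ad libitum libraries. Fasted replicate 4 lay within the ad libitum range in this sum.

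Rps13-ps7, whose parent encodes a protein of the small subunit, rose most among the tested members. It had 13.6, 14.8 and 15.6 CPM in fasted replicates 1 to 3 and 0.620 CPM in fasted replicate 4, against 0.462, 0.494, 0.559 and 0.766 CPM in ad libitum livers. The mean of fasted replicates 1 to 3 was 25.7 times that of the ad libitum libraries, and the log2 change was 4.67 ± 0.16 (edgeR adjusted p = 1.03e-10). Fasted replicate 4 lay inside the ad libitum range, with 0.11 ± 0.27 (edgeR adjusted p = 0.877), and fasted replicates 1 to 3 and fasted replicate 4 differed by 4.56 ± 0.29 (edgeR adjusted p = 2.26e-07).

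Both copies of Rps10, whose diverged sequences are printed above, behaved in this way. Rps10-ps4 had 30.1, 28.4 and 32.3 CPM in fasted replicates 1 to 3 and 2.75 CPM in fasted replicate 4, against 2.08, 2.93, 2.56 and 2.27 CPM in ad libitum livers (3.63 ± 0.12, edgeR adjusted p = 8.12e-11, a 12.3-fold ratio of means). Rps10-ps3 did not pass the low-count filter, with nearly all of its reads in 3 libraries: it had 528, 629 and 436 reads in fasted replicates 1 to 3 and 10 in fasted replicate 4, against 8, 2, 2 and 5 in ad libitum livers. In CPM its mean in fasted replicates 1 to 3 was 72.9 times that of the ad libitum libraries, and with the filter dropped the log2 change was 6.08 ± 0.27 (edgeR adjusted p = 9.13e-17). In fasted replicate 4 it was then 0.84 ± 0.56 (edgeR adjusted p = 0.572).

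Both copies of Rpl9, which encodes a protein of the large subunit, were also higher. Rpl9-ps2 had 12.7, 11.1 and 12.9 CPM in fasted replicates 1 to 3 and 3.03 CPM in fasted replicate 4, against 3.78, 3.07, 2.84 and 2.70 CPM in ad libitum livers (1.98 ± 0.13, edgeR adjusted p = 6.74e-08). Rpl9-ps9 had 56, 58 and 43 reads in fasted replicates 1 to 3 and 0 in fasted replicate 4 and in all 4 ad libitum libraries. Against a floor of 3 reads over the ad libitum group its mean of 0.471 CPM in fasted replicates 1 to 3 was at least 38.7-fold higher, and at least 12.6-fold higher than fasted replicate 4 against 3 reads in that library. These floors cover counting error only. Rpl9-ps9 met the read minimum through fasted replicates 1 to 3 alone, as it had no reads elsewhere. Its place among the members thus depended on its being higher there, and its rise is not independent of that selection.

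Rpsa-ps3, whose parent encodes the small-subunit protein also known as the laminin receptor, had 3.80, 4.37 and 5.05 CPM in fasted replicates 1 to 3 and 0.347 CPM in fasted replicate 4, against 0.260, 0.670, 0.439 and 0.624 CPM in ad libitum livers (3.14 ± 0.25, edgeR adjusted p = 5.93e-07). Fasted replicate 4 lay among the ad libitum libraries and fasted replicates 1 to 3 lay clear of them.

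Rps27-ps1 and Rps19-ps12 were just past 2-fold. Rps27-ps1, closest to the retrotransposed coding gene Rps27rt, had 13.2, 16.2 and 15.5 CPM in fasted replicates 1 to 3 and 6.92 CPM in fasted replicate 4, against 6.35, 6.46, 7.27 and 7.81 CPM in ad libitum livers (1.10 ± 0.11, edgeR adjusted p = 5.24e-06). Rps19-ps12 had 2.99, 2.65 and 2.98 CPM in fasted replicates 1 to 3 and 1.22 CPM in fasted replicate 4, against 1.33, 1.62, 1.32 and 1.42 CPM in ad libitum livers (1.01 ± 0.15, edgeR adjusted p = 0.000213). Fasted replicate 4 was below all ad libitum libraries for Rps19-ps12 and among them for Rps27-ps1.

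The smaller rises in fasted replicates 1 to 3 had log2 changes of 0.33 to 0.71. They included those of Rpl10-ps4 (0.71 ± 0.17), Rps19-ps8 (0.69 ± 0.12), Rpl3-ps2 (0.67 ± 0.12), Rpl12-ps2 (0.56 ± 0.10), Rps19-ps5 (0.42 ± 0.10) and Rpl19-ps10 (0.33 ± 0.09). Rpl12-ps2 had 24.5, 24.7 and 22.4 CPM in fasted replicates 1 to 3 and 13.3 CPM in fasted replicate 4, against 13.6, 18.4, 16.5 and 16.4 CPM in ad libitum livers. It lay above the ad libitum libraries in fasted replicates 1 to 3 and below them in fasted replicate 4, and differed between these by 0.84 ± 0.17 (edgeR adjusted p = 0.00648). Its parent Rpl12, which encodes a protein at the base of the ribosomal stalk, went the other way over its single row, with a log2 change of -0.65 (edgeR adjusted p = 0.000249) in fasted replicates 1 to 3. Rps19, the parent of 3 risers, moved the same way as its copies over its single row, with a log2 change of 2.48 (edgeR adjusted p = 0.00214) in fasted replicates 1 to 3. That row had 0.333, 0.616 and 0.400 CPM in fasted replicates 1 to 3 and 0.0993 CPM in fasted replicate 4, against 0.173, 0.0353, 0.0400 and 0.0568 CPM in ad libitum livers. The rows of Rpl12 and Rps19 are non-coding catalogue transcripts joined to coding exons on either strand. They need not measure the mRNA of the parent. The 3 risers not called against fasted replicate 4 were Rpl3-ps2, Rps19-ps5 and Rpl19-ps10, where the differences were 0.48, 0.30 and 0.25. Rpl19-ps10 had 153, 154 and 162 CPM in fasted replicates 1 to 3 and 132 CPM in fasted replicate 4, against 121, 132, 115 and 132 CPM in ad libitum livers. Its single row is a transcript of 4 exons, joined over its whole span with introns, so this need not be the level of the pseudogene. Of the 14 risers, 8 had fasted replicate 4 within the ad libitum range. The matching count was not taken over the risers of all genes, so it does not show a trait of the pseudogenes.

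**Figure D2:**
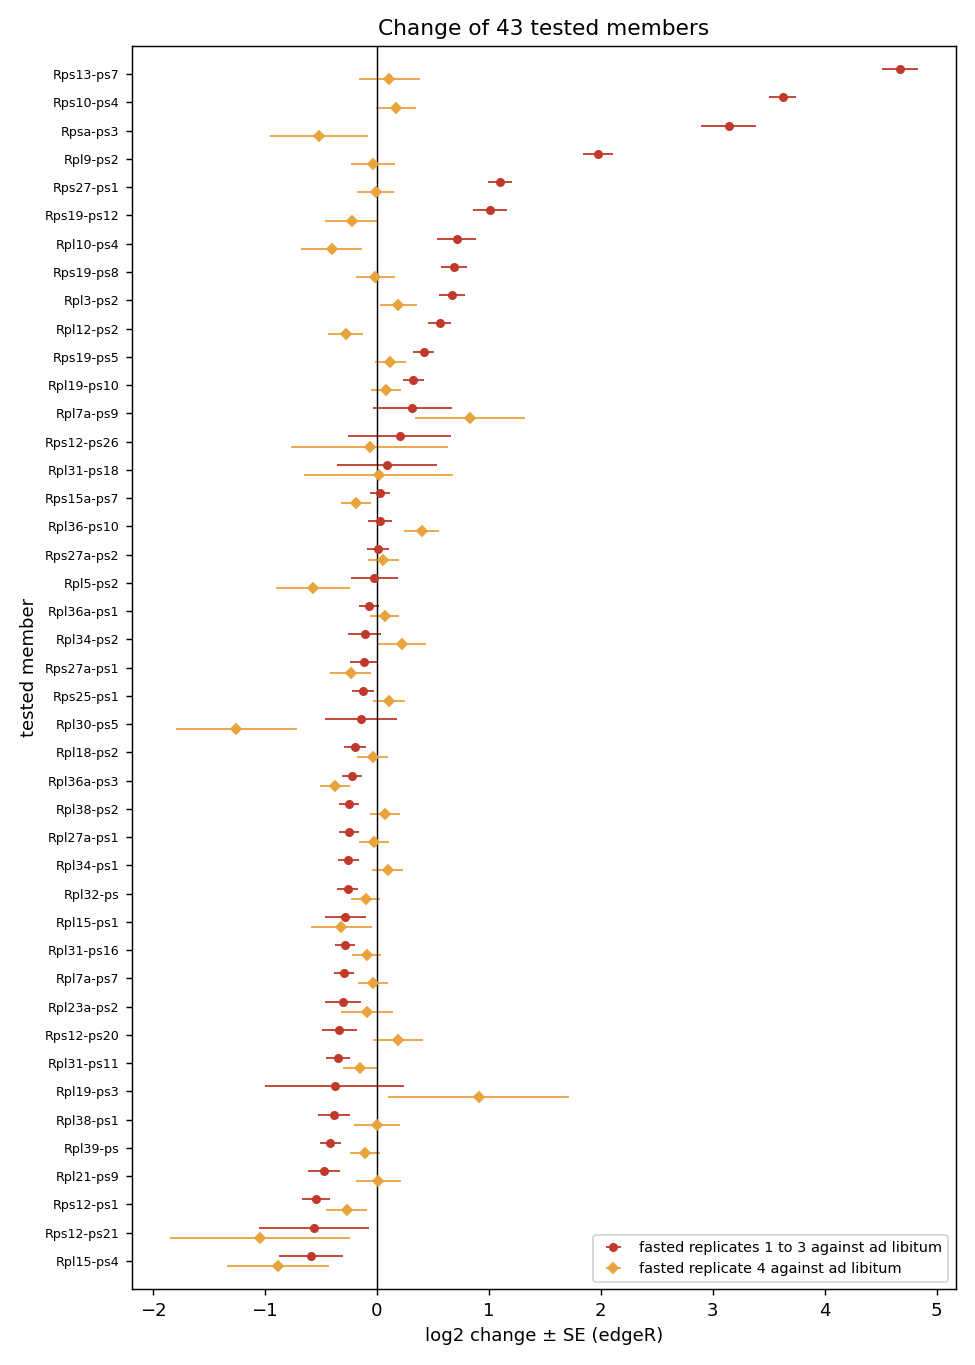
Log2 change ± SE (edgeR) of 43 tested pseudogenes in fasted replicates 1 to 3 and in fasted replicate 4, each against the 4 ad libitum libraries, ordered by the first. Fasted replicates 1 to 3 run from -0.59 to 4.67, while fasted replicate 4 runs from -1.25 to 0.91 and has no called member.

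The falls in fasted replicates 1 to 3 were shallow, with log2 changes of -0.55 to -0.26. They were Rps12-ps1 (-0.55 ± 0.12), Rpl21-ps9 (-0.47 ± 0.14), Rpl39-ps (-0.42 ± 0.09), Rpl31-ps11 (-0.35 ± 0.10), Rpl7a-ps7 (-0.29 ± 0.09), Rpl31-ps16 (-0.29 ± 0.09) and Rpl32-ps (-0.26 ± 0.09), all but the first copies of large-subunit genes. Rpl7a-ps7, which took the most reads in ad libitum livers, had 125, 124 and 133 CPM in fasted replicates 1 to 3 and 152 CPM in fasted replicate 4, against 148, 165, 149 and 162 CPM in ad libitum livers. Fasted replicates 1 to 3 lay below the ad libitum libraries and fasted replicate 4 among them. These calls depended on the scaling: with library totals in place of TMM scaling, 14 members still rose and 1 fell, Rps12-ps1. No faller was called between fasted replicates 1 to 3 and fasted replicate 4. Over all 47, fasted replicates 1 to 3 lay wholly above the ad libitum libraries for 14 members and wholly below for 13, so 27 did not overlap, against 39.1% of all genes tested. Fasted replicate 4 lay inside the ad libitum range for 27, above it for 5 and below it for 15. These last counts were not taken over all genes tested, so they do not show a trait of the pseudogenes.

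**Figure D3:**
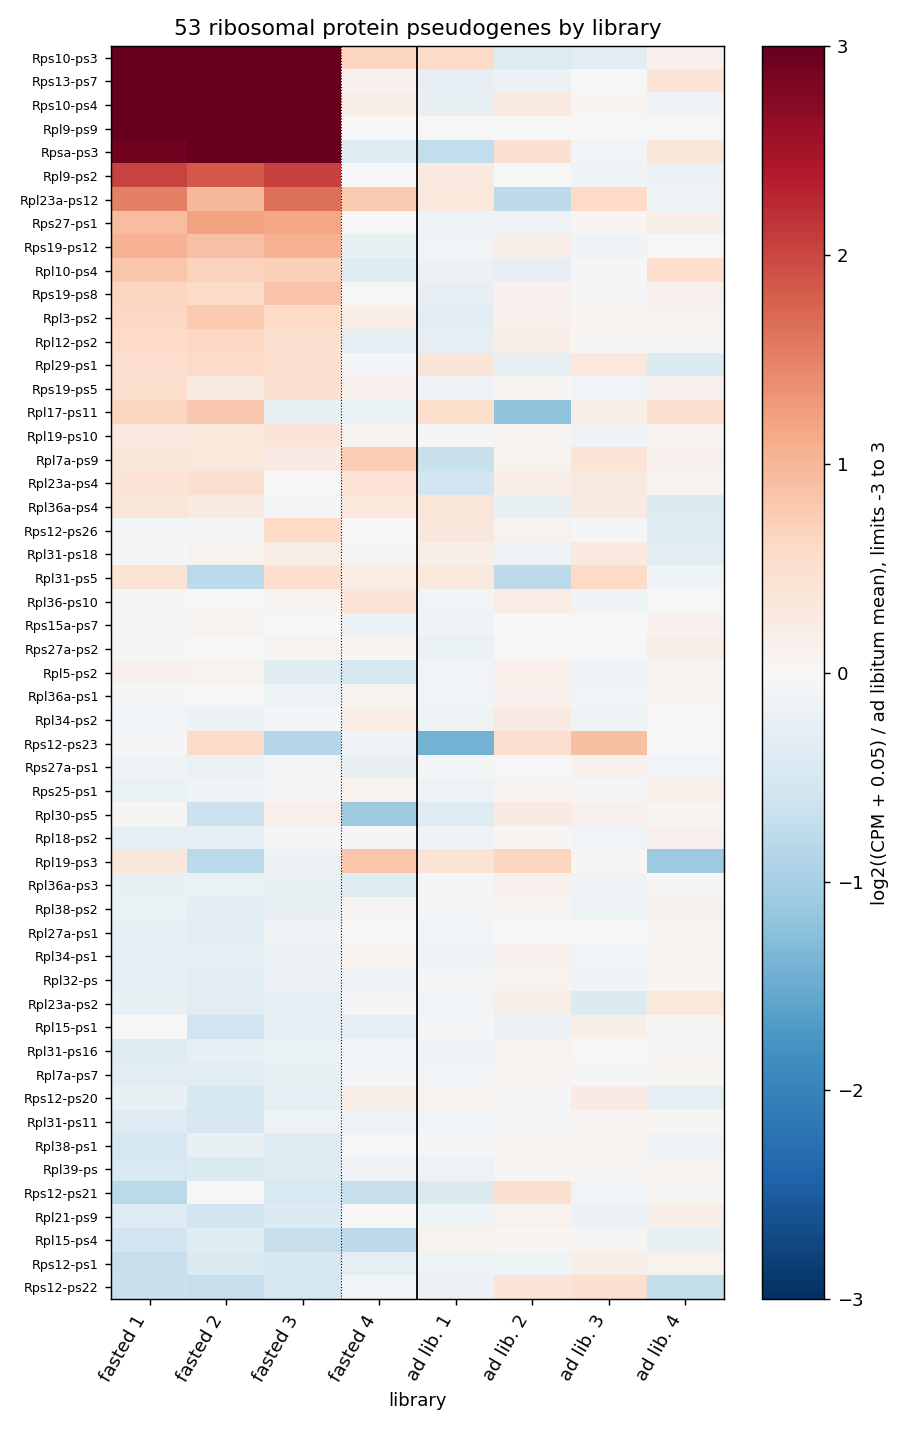
Log2 ratio of (CPM + 0.05) in each library to the same mean of the ad libitum libraries for 53 pseudogenes, with colours limited to -3 and 3. The rows at the top are dark red in fasted replicates 1 to 3 alone, and fasted replicate 4 resembles the ad libitum columns there.

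Copies of small-subunit genes accounted for most rises. Of 19 tested small-subunit copies, 9 rose and 1 fell in fasted replicates 1 to 3, with a median log2 change of 0.20, and 8 were higher than in fasted replicate 4. Of 28 tested large-subunit copies, 5 rose and 6 fell, with a median of -0.23, and 3 were higher than in fasted replicate 4. The called share was 52.6% for the small and 39.3% for the large subunit, against 31.5% of all genes tested (17.4% up, 14.1% down), and 6.04% of all genes differed between fasted replicates 1 to 3 and fasted replicate 4. The large-subunit share lies near the background, and the difference between the subunits was not tested. All 3 tested copies of Rps19, a small-subunit gene whose human counterpart is mutated in Diamond-Blackfan anaemia, rose. Of 4 tested copies of Rps12 only Rps12-ps1 was called, and the family ran in the 8-library comparison from 0.15 ± 0.41 for Rps12-ps26 (edgeR adjusted p = 0.819) to -0.66 ± 0.45 for Rps12-ps21 (edgeR adjusted p = 0.308). Rps12-ps26 had 0.122, 0.120, 0.218 and 0.124 CPM in fasted livers, against 0.173, 0.141, 0.120 and 0.0852 CPM in ad libitum livers, and Rps12-ps21 0.0649, 0.150, 0.0970 and 0.0744 CPM in fasted livers, against 0.101, 0.229, 0.140 and 0.156 CPM in ad libitum livers. Both groups overlapped in each. Rps12-ps20 to Rps12-ps23, a cluster on chromosome X, are 99.8% alike, so reads cannot be placed firmly within it.

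Most of the larger rises in fasted replicates 1 to 3 were among members that differ more from the coding transcript. With bounds set after the values were seen, the 18 tested members under 93% identity had 11 risers, no faller and a median log2 change of 0.49, with values up to 4.67. The 15 between 93% and 98% had 2 risers, 4 fallers and a median of -0.25. The 14 at 98% or more had 1 riser, 3 fallers and a median of -0.21, with a range from -0.42 to 0.67. Over all genes tested the median was -0.00 and 31.5% were called. Identity counts gap columns as differences, so it does not reflect substitutions alone. Rps19-ps5, a riser at 89.3%, had 12 mismatches, 35 gap columns and a longest identical stretch of 95 bases. The level of the members also differed along identity. The median level in ad libitum livers was 2.22 CPM under 93%, 7.08 CPM between 93% and 98% and 62.7 CPM at 98% or more. Identity and level were not separated, and the part of each was not tested. The 6 described members past 2-fold were 83.6% to 94.7% identical to a coding transcript, and their longest stretch without a mismatch was 33 to 79 bases. In Rps13-ps7, Rps10-ps4 and Rpl9-ps2, 0% of the windows of 50 bases were found unchanged in the closest coding transcript, whereas 88.0% were in Rps27a-ps2 and 100% in Rpl38-ps2.

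Spearman's rho across the 47 members between identity and log2 change was -0.335 in fasted replicates 1 to 3 and 0.162 in fasted replicate 4, each against the same ad libitum libraries, and -0.470 for fasted replicates 1 to 3 against fasted replicate 4. These are descriptions across genes measured in the same libraries, and genes are not independent replicates. In fasted replicate 4 the members under 93% had a median of -0.13, those between 93% and 98% of -0.02 and those at 98% or more of -0.02. Not every diverged member rose, as Rpl15-ps4, at 78.9% the least like its coding gene of those tested, had a log2 change of -0.59 ± 0.29 in fasted replicates 1 to 3 (edgeR adjusted p = 0.139). At the opposite end Rpl3-ps2 rose at 98.9% identity, a value for the whole copy of 1214 bases, of which its only row covers 143. Odd read numbers made up 29.0 to 30.6% of the pseudogene rows with any reads in fasted replicates 1 to 3 and 14.1% in fasted replicate 4, against 16.4 to 27.4% in ad libitum livers, and their part was not tested.

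**Figure D4:**
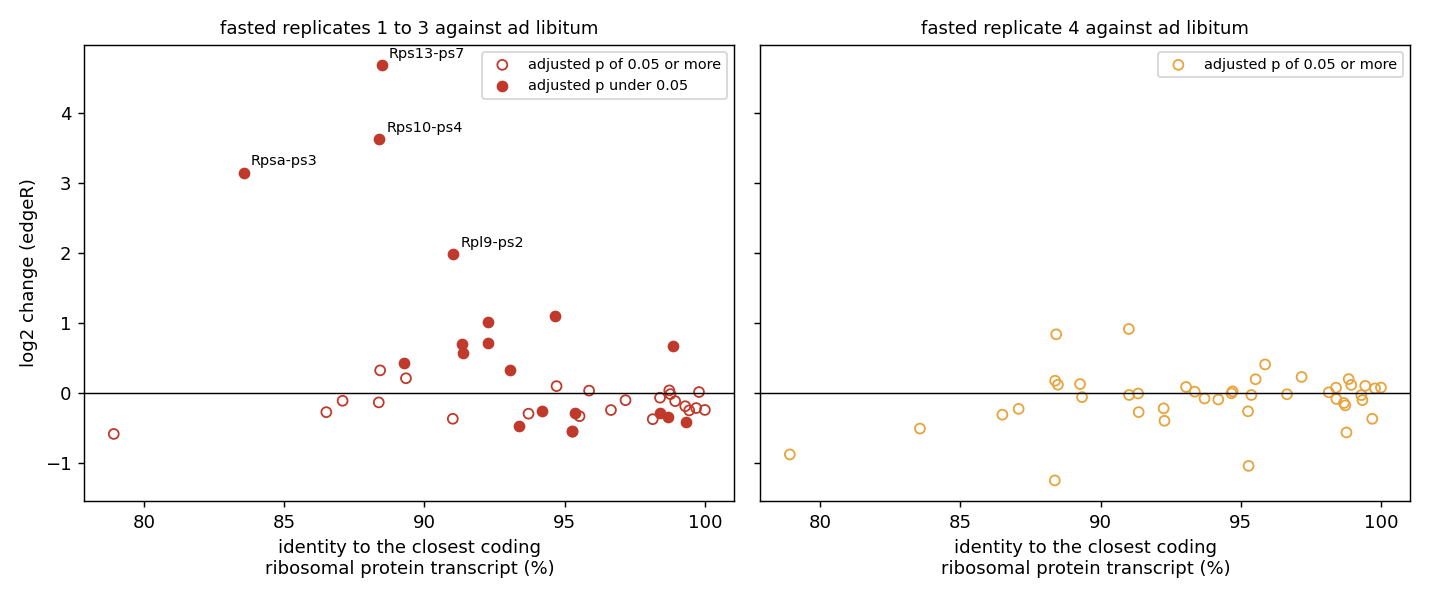
Log2 change (edgeR) of 43 tested pseudogenes against their identity in percent to the closest coding ribosomal protein transcript, for fasted replicates 1 to 3 on the left and fasted replicate 4 on the right, both against the ad libitum libraries; filled points passed an adjusted p under 0.05. The large positive values, up to 4.67, stand at 83.6% to 94.7% identity on the left, and no point is filled on the right.

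Where the copies lie in the genome differed among the risers. In all, 16 members lie within the span of a protein-coding gene, 4 on its strand and 12 on the opposite strand only. Rps13-ps7 (chr1:63038214-63038581, plus strand) and Rps27-ps1 (chr1:63073774-63074019, plus strand) both lie inside Ino80d, a subunit gene of a chromatin remodelling complex, on the strand opposite to it. The rows joined to Ino80d itself had a log2 change of -0.16 in fasted replicates 1 to 3 (edgeR adjusted p = 0.221) and -0.04 in fasted replicate 4. Rps10-ps4 (chr5:147100562-147101053, minus strand) lies opposite to Polr1d, which was not tested. Rps10-ps3 (chr4:3978251-3978750, minus strand), Rpsa-ps3 (chr11:22386292-22388196, plus strand), Rpl9-ps2 (chr11:46562031-46562607, plus strand) and Rps19-ps12 (chr16:79914460-79914871, minus strand) lie within no coding gene. Of the 11 tested members inside a coding gene 3 rose and none fell in fasted replicates 1 to 3, and of the 36 outside 11 rose and 7 fell, where 31.5% of all genes passed (17.4% up, 14.1% down). The share inside coding genes lies near that background.

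The coding ribosomal protein genes were poorly covered, because the table lists non-coding catalogue transcripts: 27 of 89 had a row and 22 were tested. In fasted replicates 1 to 3, 3 rose and 4 fell, with a median log2 change of -0.20. Rps13, Rpsa, Rpl9 and Rps27, for which large risers are named, were not among the 22 tested. Over the rows joined to it, Rps10 had 0.195 to 0.291 CPM in fasted livers and 0.141 to 1.16 CPM in ad libitum livers. Its log2 change was -1.17 in fasted replicates 1 to 3 (edgeR adjusted p = 0.134). Of 35 tested genes of mitochondrial ribosomal proteins, 9 rose and 3 fell in fasted replicates 1 to 3, of 19 translation factors 7 rose and 1 fell, and of 12 ribosome biogenesis genes 2 rose and 1 fell. The called shares were 31.8% for the coding ribosomal proteins, 34.3% for the mitochondrial ribosome, 42.1% for translation factors and 25% for ribosome biogenesis, against 31.5% of all genes, so the first, second and last lie near the background. Across all 8 libraries the counts were 6 up and 1 down for the mitochondrial ribosome, 6 up and 0 down for translation factors, 1 up and 2 down for the coding ribosomal proteins, and 0 for ribosome biogenesis, where 4 had an unadjusted edgeR p under 0.05, DESeq2 called 2 and limma-voom 0. In that order the called shares were 20%, 31.6%, 13.6% and 0%, against 25.1% of all genes tested.

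Pseudogenes of other genes were counted in the same way. Of 123 tested pseudogenes with -ps in the name that derive from other genes, 54 rose and 18 fell in fasted replicates 1 to 3, with a median log2 change of 0.37, and 37 were higher and 0 lower than in fasted replicate 4. With fasted replicate 4 set against the ad libitum livers, 0 of these rose and 5 fell, where 27 had an unadjusted edgeR p under 0.05 in either direction. Of 1661 tested genes with a pseudogene biotype outside the ribosomal protein set, 612 rose and 162 fell in fasted replicates 1 to 3, and 419 were higher and 5 lower than in fasted replicate 4. The called shares in fasted replicates 1 to 3 were 58.5% and 46.6% for these 2 lists, against 44.7% of the ribosomal protein pseudogenes and 31.5% of all genes tested. Between fasted replicates 1 to 3 and fasted replicate 4 they were 30.1% and 25.5%, against 23.4% and 6.04%. The higher values in fasted replicates 1 to 3 were thus not particular to the ribosomal protein pseudogenes. The ribosomal protein pseudogenes, with 14 up and 7 down, had a lower median of -0.07. The difference between these groups of pseudogenes was not tested.

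The 11 members below the low-count filter include Rps10-ps3 and Rpl9-ps9, described above. Without the filter Rpl23a-ps12 was also called in fasted replicates 1 to 3 (2.07 ± 0.72, edgeR adjusted p = 0.0350), on 24, 16 and 18 reads there and 8 in fasted replicate 4, against 4, 0, 4 and 2 reads in ad libitum livers. Its reads outside fasted replicates 1 to 3 would not have met the read minimum. As with Rpl9-ps9, its place among the members depended on the libraries in which it was higher, so this call is not independent of that selection. The other 8 (among them Rpl17-ps11, Rpl23a-ps4, Rpl29-ps1, Rpl31-ps5, Rpl36a-ps4, Rps12-ps22 and Rps12-ps23) had 24 to 72 reads over all 8 libraries and were not called, which does not show that they did not differ. Rpl17-ps11 had no same-strand alignment to a coding ribosomal protein transcript, so no identity is given for it.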

How the data were processed

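Per the file headers, the authors deposited raw read counts and RPKM for each of 8 libraries over 83057 transcripts, with a coding-potential score (CNCI) per transcript that was not used in any result. The submitters' processing notes name bcl2fastq 2.17, BWA and mm10; the counting tool, how it used strand and what it did with reads of several possible origins are, in the sources used here, not given. The mitochondrial 16S rRNA row, 26.0 to 31.6% of the reads where filled and empty in ad libitum replicate 3, was left out. An empty cell was read as 0. Rows were joined by position (bedtools 2.31.1) to exons of GENCODE mouse release 21. Non-coding genes took rows on the same strand and coding genes rows on either strand, and counts were summed per gene. A spliced row was joined over its whole span, introns included, so its reads need not come from the gene it was joined to. Of the 58 members, 46 had only rows of 1 exon that lay at least 50% inside exons of the member. Reads in overlapping rows can count more than once.

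The 15400 genes that passed filterByExpr were fitted with edgeR 4.0.16 (TMM scaling, quasi-likelihood F test, two-sided, Benjamini-Hochberg adjustment over all genes tested, threshold 0.05) in R 4.3.3. The first model had the fasted and ad libitum groups; the second had ad libitum, fasted replicates 1 to 3 and fasted replicate 4. CPM are counts over TMM-scaled totals. Deposited RPKM values were used for levels per length, from the gene's row with the most reads. Identity was read from blastn 2.17.0 alignments of GENCODE transcripts to coding ribosomal protein transcripts, with gap columns counted as differences. Only the first model was tried on simulated counts, whose spread was estimated under the second. Alternatives were RLE scaling, library totals, DESeq2 1.42.0, limma-voom (limma 3.58.1), other filters, other row assignments, a block for the replicate number, and the removal of each library.

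The members and gene lists were chosen with earlier results of these data known, and so was the separation of fasted replicate 4. Members are named if among the 10 with the highest mean CPM, called as rising without overlap (largest 10), called as falling, called in fasted replicate 4, or the highest and lowest of a family of at least 4 tested members. Other members are named for their values in fasted replicates 1 to 3, or for having too few reads, and were chosen after those values were seen. Lists were coding cytosolic and mitochondrial ribosomal protein genes, translation factors, ribosome biogenesis genes, other pseudogenes and cell type markers. Values of 5 members are not reported here, and these 5 are left out of the figures but not of the counts.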

Additional observations from a re-analysis of the deposited data

Results flagged for a closer look

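Of 56 groups of 4 libraries examined (27 described pseudogenes and the summed share, in fasted and in ad libitum livers), 6 had 1 library whose gap to the nearest other was a larger share of the group's range than Dixon's critical value allows. The rule flags about 1 in 20 by chance only where groups are chosen without regard to their values. Many of the 27 were described for their values in fasted replicates 1 to 3, so that rate does not apply to flags of fasted replicate 4. In 4 of the 6 the far library was fasted replicate 4. There the gap was 0.869 of the range for Rps13-ps7 (0.620 CPM in that library), 0.866 for Rps10-ps4 (2.75 CPM), 0.850 for Rpl36a-ps3 (90.1 CPM) and 0.835 for Rpl10-ps4 (2.03 CPM). All 4 were lower in fasted replicate 4 than in the other fasted libraries. For Rps12-ps26 the far library was fasted replicate 3, with 0.218 CPM and a gap of 0.961 of the range. For Rpl3-ps2 it was ad libitum replicate 1, with 19.5 CPM and a gap of 0.898.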

How the results depend on the processing

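Over the alternatives, all 14 risers of fasted replicates 1 to 3 were called wherever they had a value, against 1 of the 7 fallers (Rps12-ps1), and no alternative called a member in fasted replicate 4, including a fit without fasted replicates 1 to 3 that was chosen after seeing the data. Of the 11 members called between fasted replicates 1 to 3 and fasted replicate 4, 8 were called in every alternative with a value. In fasted replicates 1 to 3 the split was 14 up and 7 down with TMM, 14 and 1 with library totals, and 14 and 11 with DESeq2. The 8-library count of 13 members was 5 with library totals, 5 with limma-voom and 3 with the replicate block, and 1 to 25 with 1 library left out. The replicate block was only a shared number, as same-numbered libraries did not deviate together (correlations -0.002 to 0.054), and it called 2989 genes. The count of 3867 genes was 1581 with only single-exon rows at least 50% inside exons (fewer genes were tested), 658 without fasted replicates 1 to 3 (fewer samples), and 2392 to 5270 with 1 library left out. The difference in the summed share, 27.1, was 113.6 with the reads of all genes as denominator (p = 0.34 in the exact permutation test) and ran from -42.3 to 98.9 with 1 library left out, negative without ad libitum replicate 1 or 3 (-5.70 and -1.81) and without fasted replicate 1 or 2 (-42.3 and -26.5). Uncalled log2 changes near 0 changed sign: Rps15a-ps7 was 0.0056 with at least 1 CPM in 4 libraries, 0.019 with single-exon rows and -0.071 to 0.024 with 1 library left out, Rps27a-ps2 -0.047 to 0.080 and Rps12-ps26 -0.012 to 0.33 with 1 library left out. The cause of these shifts was not tested. Depth limits the 8 members with 24 to 72 reads that no fit called, and near-identical copies cannot be separated from their parents in these counts.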
